A study of Mus musculus with 38 samples.

Results

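Sestrins, Btg proteins and stress-induced Polo-like kinases are short-lived or inducible regulators that slow growth and division in stressed cells. The genes examined here were 7: Sesn1, Sesn2 and Sesn3, Btg1 and Btg2, and Plk2 and Plk3. They were taken by name, with earlier results of these data known, from 20018 mouse genes with a symbol on the array. They are read by 8 of its 55681 probes, since Btg1 has 2 probes and each of the other genes has 1. Lungs and forestomachs came from male MutaMouse, a transgenic strain carrying lacZ as a mutation reporter, aged about 10 weeks. All mice were gavaged daily for 28 days, and tissues were taken 72 h after the final dose. D0 mice received olive oil alone, and the others received dibenz(ah)anthracene (DBahA) in olive oil, at a daily dose in mg per kg body weight of 6.25 in D1, 12.5 in D2 and 25 in D3. DBahA is a polycyclic aromatic hydrocarbon that activates the aryl hydrocarbon receptor and whose metabolites bind to DNA. From D0 to D3 there were 5, 5, 4 and 5 mice with lung values, and 5, 5, 4 and 4 with forestomach values. RNA came from a random slice of the forestomach or of the right lung lobe, with all its cell types, so that fewer cells of a type and less RNA per cell cannot be told apart.

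Each array compared a tissue (Cy5) with a common reference RNA pooled from 11 mouse cell lines (Cy3), so the value given for a gene is log2(tissue/reference). A value of 0 means the same signal as the reference, and a difference of 1 between mice is a doubling. Levels of different genes cannot be set against each other on this scale. Of the 7 genes, all were well above background in Cy5 on all 19 lung arrays, and on all 19 forestomach arrays with 1 exception, Plk2, which was so on 17. All 6 lung epithelial markers were well above background on each lung array, and 7 or 8 of 8 squamous markers on each forestomach array. The forestomach arrays were not alike in content. On 6 of 19 the mean of 9 glandular stomach markers lay between 0.35 and 0.92, and on the other 13 between 4.83 and 6.76. The 6 were those of mice 2 and 5 (D0), 8 and 9 (D1) and 15 (D2), and the first array of mouse 18 (D3), whose other array was among the 13. No forestomach array analysed here is labelled mouse 20, and whether both arrays labelled mouse 18 came from 1 animal is not settled by these data. Heart muscle markers varied between lung arrays, with a mean from 0.37 to 1.71 at D0 and from 0.15 to 2.86 at D3.

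Sestrins are inhibitors of mTORC1, the growth-promoting kinase complex, and they promote the clearance of oxidants. Sesn1 and Sesn2 are targets of the tumour suppressor p53, Sesn2 also answers to Atf4 and to the antioxidant factor Nrf2, and Sesn3 is driven by FoxO factors. Btg1 and Btg2 are small antiproliferative proteins that recruit the CCR4-NOT complex to shorten the poly(A) tails of mRNAs, and Btg2 is a p53 target. Plk2 and Plk3 are Polo-like kinases induced by stress and DNA damage, unlike Plk1, which drives mitosis. Plk2 acts at centrosomes and, in neurons, at synapses, and it is a p53 target. Plk3 takes part in the DNA damage checkpoint and behaves as an immediate early gene.

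The promoter windows of Sesn2 and Plk2 are shown because these genes passed the test in lung, and that of Btg2 because this p53 target did not. Each window runs from 250 bases before to 50 bases after the RefSeq start site (assembly GRCm38.p6) and reads 5′ to 3′ on the strand of the gene. Capitals mark the letters of 4 motifs searched on both strands: the p53 half-site, the cAMP response element TGACGTCA, the core GCGTG of the dioxin response element, to which the aryl hydrocarbon receptor binds and which on the opposite strand reads CACGC, and the core of the antioxidant response element TGACNNNGC.
Sesn2 (chr4:132510407-132510706, minus strand): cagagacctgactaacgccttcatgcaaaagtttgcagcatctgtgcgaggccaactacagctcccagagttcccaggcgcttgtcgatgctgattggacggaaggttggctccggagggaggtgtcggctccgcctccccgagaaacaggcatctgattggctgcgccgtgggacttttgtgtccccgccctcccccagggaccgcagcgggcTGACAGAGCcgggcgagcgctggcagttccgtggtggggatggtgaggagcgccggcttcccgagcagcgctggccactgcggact
Plk2 (chr13:110394794-110395093, plus strand): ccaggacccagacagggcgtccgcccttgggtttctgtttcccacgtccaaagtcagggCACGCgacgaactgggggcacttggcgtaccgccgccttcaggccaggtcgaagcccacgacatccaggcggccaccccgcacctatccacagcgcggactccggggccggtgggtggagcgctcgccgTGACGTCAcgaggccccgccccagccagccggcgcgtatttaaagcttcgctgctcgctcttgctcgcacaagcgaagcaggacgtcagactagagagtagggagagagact
Btg2 (chr1:134079106-134079405, minus strand): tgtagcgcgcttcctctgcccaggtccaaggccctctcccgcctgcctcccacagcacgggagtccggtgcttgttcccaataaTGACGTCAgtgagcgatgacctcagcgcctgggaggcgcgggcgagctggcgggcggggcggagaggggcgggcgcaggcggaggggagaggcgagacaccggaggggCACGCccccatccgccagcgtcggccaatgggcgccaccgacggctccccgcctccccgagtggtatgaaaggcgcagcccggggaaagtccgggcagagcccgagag
The cAMP response element stood in the Plk2 window at position -62 from the start site and in the Btg2 window at position -166, and in none of the other 5 genes' windows. It is found in 588 of all 32851 windows in the RefSeq table, or 1.79%. The antioxidant core stood in the Sesn2 window alone, against 12.4% of all windows. The dioxin core stood in windows of Sesn1, Btg1, Btg2, Plk2 and Plk3, against 32.4% of all windows. A p53 half-site was found in none of the 3 windows printed and in 1 of the 2 windows of Sesn1, against 8.36% of all windows. Sites that lie further from the start, as many p53 sites do, are outside these windows.

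In the lung, Plk2 and Sesn2 rose with DBahA, Plk3 was higher by less than the fold required, and none of Sesn1, Sesn3, Btg1 and Btg2 passed the test at any dose. Calls required an adjusted p no larger than 0.05 (limma, Benjamini-Hochberg over all 55681 probes) together with a change of 1.5-fold or more, which is 0.585 on the log2 scale. Of the 7 genes, 0 were called at D1, 1 at D2 (Plk2) and 2 at D3 (Plk2 and Sesn2). Among all genes with a symbol, 0.28% were called at D1, 0.51% at D2 and 1.17% at D3.

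Plk2 had the largest increase of the 7 genes at D3, and Sesn2 at D1. Its log2 ratio in lung was -0.72, -1.21, -0.82, -1.09 and -1.0 in the D0 mice. It was -0.32, 0.03, -0.44, -0.72 and -0.58 at D1, and -0.05, 0.13, -0.17 and -0.43 at D2. At D3 it was 0.30, 0.09, -0.37, -0.24 and -0.06. Each of the 4 D2 and 5 D3 mice lay above every D0 mouse, and the lowest D1 mouse equalled the highest D0 mouse to 2 decimals. The group means were -0.97 ± 0.20 (SD, n = 5), -0.40 ± 0.29 (n = 5), -0.13 ± 0.23 (n = 4) and -0.06 ± 0.27 (n = 5) from D0 to D3. The difference from D0 was 0.56 at D1 (SE 0.14, adjusted p = 0.204), 0.84 at D2 (SE 0.15, adjusted p = 0.00983) and 0.91 at D3 (SE 0.14, adjusted p = 0.00156). The D3 value is a 1.88-fold increase, with a 95% confidence interval of 0.61 to 1.21 on the log2 scale, and ranks Plk2 104th from the top of all genes. Compared with the D0 mouse or mice of the same slide, the D3 mouse was higher on 4 of 4 slides, by 0.57 to 0.98. The D2 call rests on mouse 12, without which the difference was 0.75 (adjusted p = 0.0725).

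Sesn2 gave a difference of like size with a wider spread. In the D0 lungs its log2 ratio was -0.88, -0.06, -0.21, -0.20 and -0.27, and the lowest of these, mouse 2, stood apart from the others. It was 0.30, -0.07, 0.07, 0.68 and 0.52 at D1, and 0.18, 0.15, 0.73 and 0.96 at D2. At D3 it was 0.67, -0.14, 0.55, 0.99 and 0.63. All D2 mice lay above every D0 mouse, and at D1 and at D3 4 of 5 mice did, with mice 7 and 17 inside the D0 range. Mice 2, 7, 12 and 17, the lowest in Sesn2 of D0, D1, D2 and D3, were all on the same slide. The difference from D0 was 0.62 at D1 (SE 0.20, adjusted p = 0.497), 0.83 at D2 (SE 0.22, adjusted p = 0.137) and 0.86 at D3 (SE 0.20, adjusted p = 0.0355), a 1.82-fold increase with a 95% interval of 0.44 to 1.29. Within slides the D3 mouse was higher than the D0 mice on 4 of 4 slides, by 0.61 to 1.20. With slide as a block, Sesn2 was called at all 3 doses, with differences of 0.67, 0.91 and 0.91 and adjusted p of 0.00666, 0.000752 and 0.00012. Without the block, the D3 call stood in 2 of 10 fits that each left out 1 mouse, those without mouse 3 and without mouse 17. In the other 8 (without mouse 1, 2, 4, 5, 16, 18, 19 or 20) the difference was 0.72 to 0.89 and the adjusted p 0.0606 to 0.106.

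Plk3 had an adjusted p within the limit at D3 and a smaller difference. Its log2 ratio in lung was -1.10 to -0.83 at D0 with a median of -1.0, and -0.73, -0.61, -0.53, -0.53 and -0.44 in the D3 mice, all above every D0 mouse. At D1 and at D2 3 mice lay above every D0 mouse, and mouse 11 of D2, at -1.09, lay inside the D0 range. The difference from D0 was 0.16 at D1 (adjusted p = 0.825), 0.26 at D2 (adjusted p = 0.474) and 0.41 at D3 (SE 0.09, adjusted p = 0.0307). The D3 difference is 1.33-fold and so fell short of the fold threshold. Leaving out 1 mouse at a time raised the adjusted p to as much as 0.0858.

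**Figure D1:**
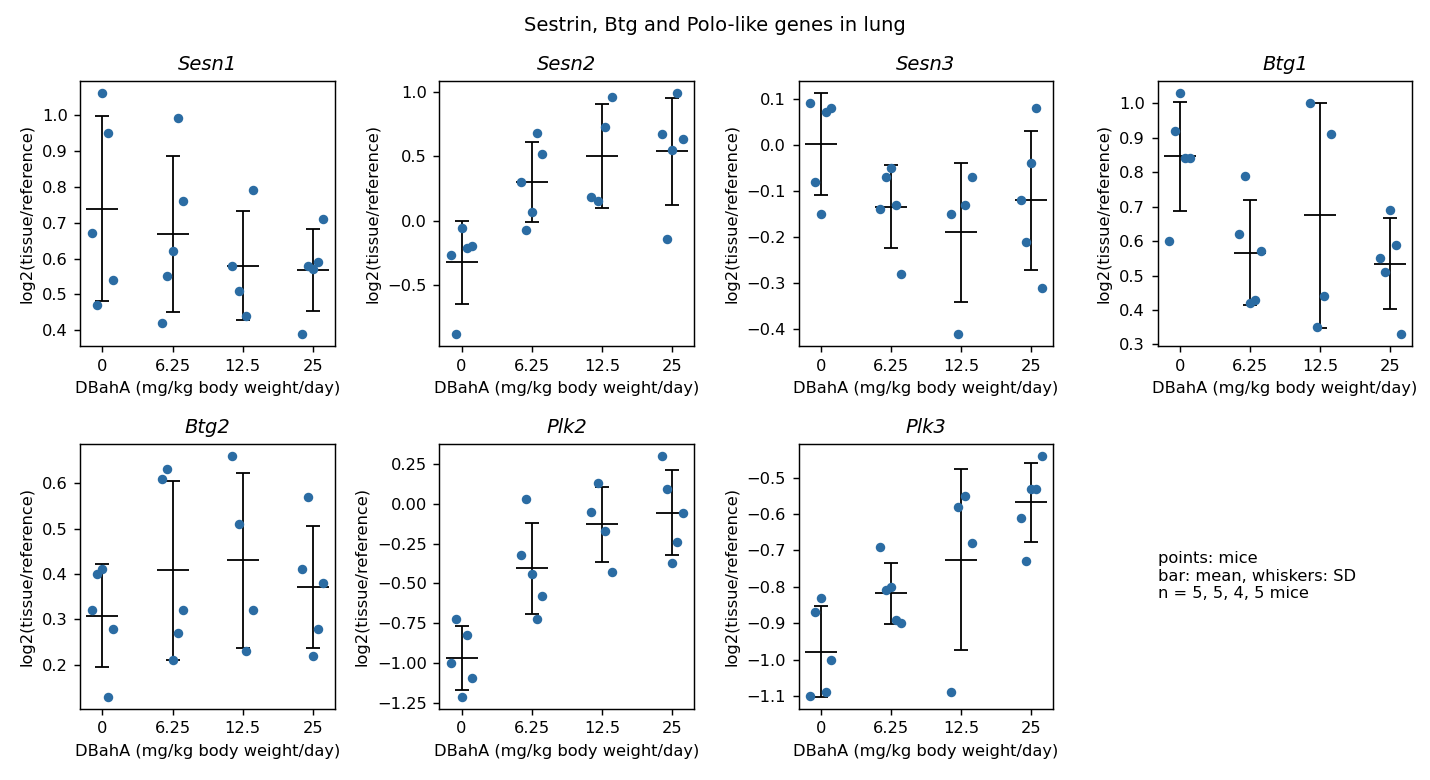
Log2(tissue/reference) of the 7 genes in lung (vertical axes) by daily dose of DBahA (horizontal axes). Points are mice, the bar is the group mean and the whiskers are the SD. Every D2 and D3 mouse lies above every D0 mouse for Plk2, and the dose groups overlap for Sesn1, Sesn3, Btg1 and Btg2.

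Sesn1 and Btg2, like Plk2 and Sesn2 p53 targets, showed no called difference. Sesn1 was 0.47 to 1.06 in the D0 lungs and 0.39 to 0.71 at D3, with a difference of -0.17 (SE 0.12, adjusted p = 0.648). Its 95% interval ran from -0.41 to 0.07. The Sesn1 probe is named by 1 of the 2 RefSeq transcripts of the gene. Btg2 was 0.13 to 0.41 at D0 and 0.22 to 0.57 at D3, with a difference of 0.06 (SE 0.10, adjusted p = 0.880) and an interval from -0.15 to 0.28. For both genes these intervals, from the loess fit, exclude a change of 1.5-fold in either direction. Under alternative processing the D3 difference reached 0.26 for Sesn1, with its sign turned, and 0.48 for Btg2. Sesn3, the FoxO-driven sestrin, differed by -0.12 at D3 (SE 0.08, adjusted p = 0.648), with an interval from -0.30 to 0.05.

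Btg1 did not pass the test, and the sign of its difference depended on the scaling. Its reporting probe was 0.92, 1.03, 0.84, 0.84 and 0.60 in the D0 mice and 0.55, 0.51, 0.69, 0.59 and 0.33 at D3. Of the 5 D3 mice 4 lay below every D0 mouse. The difference was -0.28 at D1 (adjusted p = 0.716), -0.17 at D2 (adjusted p = 0.790) and -0.31 at D3 (SE 0.12, unadjusted p = 0.0168, adjusted p = 0.281), and with arrays centred on their median in place of loess it turned to 0.22 at D3. Under that centring, genes well above background on every array of both tissues had a median D3 difference of 0.43. The second, dimmer probe of Btg1 differed by -0.74, -0.51 and -0.40 at the 3 doses in the loess fit, none of them called. At D0 that probe read 1.05 in mouse 3 and -0.93 to -0.66 in the other 4 mice.

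The doses were then compared with each other. Between D3 and D1 in lung, 0 of the 7 genes were called, as were 0% of all genes. Plk2 was higher at D3 than at D1 by 0.35 (95% interval 0.05 to 0.65, unadjusted p = 0.0254, adjusted p = 1), Plk3 by 0.25 (0.05 to 0.44, unadjusted p = 0.0158, adjusted p = 1) and Sesn2 by 0.24 (-0.18 to 0.66, adjusted p = 1). The group means of Plk2, Sesn2 and Plk3 stood in the order of the doses. For Plk2 and Sesn2 the step from D0 to D1 was larger than either later step, and D2 and D3 did not differ beyond their spread, with Plk2 means of -0.13 and -0.06.

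The genes that act with or beside these 7 were read from lists of known partners and targets, at D3 in lung. Of 23 other p53 targets, 9 were called at D1, 13 at D2 and 14 at D3, all of them higher, with a median D3 difference of 0.68 against 0.01 over all genes. The 4 largest were Gdf15 (3.63, SE 0.21, adjusted p = 1.84e-09), a secreted stress signal, Cdkn1a (2.93, SE 0.17), the p21 inhibitor of cell cycle kinases, Phlda3 (2.04, SE 0.11), an inhibitor of Akt, and Ccng1 (1.95, SE 0.20), cyclin G1. In order of size, Plk2 at 0.91 followed Ephx1, the microsomal epoxide hydrolase, at 1.05, and Sesn2 at 0.86 lay between Ei24, a protein of the endoplasmic reticulum, at 0.88 and Mdm2, the ubiquitin ligase of p53, at 0.83. Plk3, Btg2, Sesn3, Sesn1 and Btg1 lay below the 14 called targets. The other 9 targets were not called, among them Bbc3, the Puma inducer of apoptosis, which at 0.57 (adjusted p = 0.000245) missed only the fold required. With median centring in place of loess, 4 of the 23 were called.

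**Figure D2:**
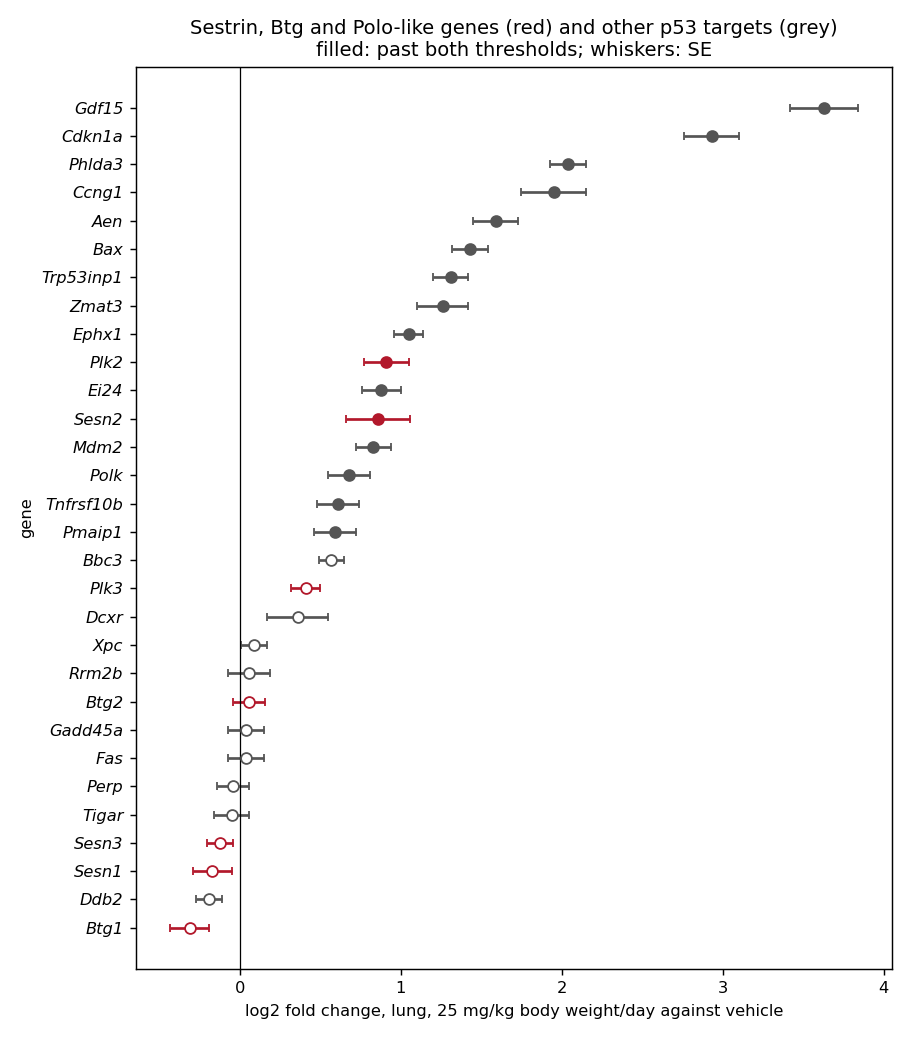
Log2 fold change in lung at D3 (25 mg/kg-bw/day) against D0 (horizontal axis) for the 7 genes (red) and 23 other p53 targets (grey), ordered by value. Whiskers are the SE and filled points passed both thresholds. Plk2 at 0.91 and Sesn2 at 0.86 lie below Gdf15 at 3.63 and Cdkn1a at 2.93, and among the lower of the filled points.

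None of the genes listed for the pathway the sestrins act on was called, where 1.17% of all genes were. These are mRNA levels, and the activity of the pathway was not measured. Of 22 genes of nutrient sensing and mTORC1 control, which include the GATOR complexes that bind sestrins, 0 were called, and their median difference was 0.13. The smallest p belonged to Tsc1, a brake on mTORC1, at -0.31 (SE 0.10, adjusted p = 0.186). Of 8 antioxidant partners 0 were called, with a median of 0.10, and Prdx3, a mitochondrial peroxiredoxin, had the smallest p at 0.14 (adjusted p = 0.471). Among 12 genes of the Atf4 stress response, 1 was called, Cebpb, a partner of Atf4, which fell by 0.60 on the log2 scale (SE 0.11, adjusted p = 0.00395), and the median was -0.10. Among 12 FoxO factors and targets, 1 was called, the repressor Bcl6, which fell by 0.69 (SE 0.15, adjusted p = 0.0255), with a list median of -0.08.

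The same held for the partners of the Btg proteins and for the other Polo-like kinases. Of the 4 other BTG/TOB genes 0 were called (median -0.07, smallest p for Tob2, at -0.20). Of 11 genes of CCR4-NOT and protein methylation 0 were called (median 0.00), and Cnot2, a subunit of CCR4-NOT, had the smallest p at -0.20 (adjusted p = 0.368). Of the 3 other Polo-like kinases 0 were called, and Plk1, the mitotic kinase, differed by 0.41 (SE 0.12, adjusted p = 0.115). Among 13 immediate early genes, the class to which Plk3 and Btg2 are counted, 1 was called, the transcription factor Egr1, higher by 0.68 (SE 0.15, adjusted p = 0.0276), against a list median of -0.05. Of 8 glucocorticoid-responsive genes 0 were called, with Errfi1, an inhibitor of EGF receptor signalling, at -0.53 (adjusted p = 0.112). Clock genes moved in the same lungs: 4 of 10 that peak with Dbp were called higher, Dbp itself by 2.32 (SE 0.33, adjusted p = 0.000601), Nr1d2 by 1.17, Hlf by 1.04 and Tef by 0.95, and 2 of 5 of the opposite phase were called lower, Arntl by -1.49 and Nfil3 by -0.70.

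Markers of dividing cells rose together with Plk2 and Sesn2. Of 6 such markers 5 were called higher at D3 (median 0.96), Birc5, survivin, by 1.55 (SE 0.14), Mki67, the Ki-67 antigen, by 1.23 (SE 0.14), and the list mean was -3.86 to -3.52 in D0 lungs and -3.01 to -2.37 in all treated lungs. Their part in the Plk2 and Sesn2 differences was not tested. Of the lung epithelial, B lymphocyte, T lymphocyte, heart muscle, fat, pancreas, squamous and glandular marker genes, 0 were called in lung at any dose. With the heart muscle score as a covariate the D3 differences were 0.94 for Plk2 (adjusted p = 0.0011) and 0.89 for Sesn2 (adjusted p = 0.0311).

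In the forestomach none of the 7 genes was called at any dose. The count of all genes called there was 0 at D1, D2 and D3, or 0%, and likewise between D3 and D1. Plk2 was -1.34, -1.76, -1.28, -1.30 and -1.90 in the D0 mice and -1.42, -1.41, -1.29 and -1.69 at D3, and the groups overlapped. The D3 value -1.29 is the mean of both arrays labelled mouse 18, which read -0.86, above every D0 mouse, and -1.73. Sesn2 was -0.48, 0.56, 0.43, 0.70 and -0.38 at D0 and 0.09, -0.65, -0.01 and 0.39 at D3. Plk3 was 2.40, 1.82, 2.19, 2.56 and 0.29 at D0 and 2.47, 2.48, 2.09 and 1.54 at D3. These groups overlapped as well. The SE of each D3 difference was larger than in lung, although the SD of Plk2 at D3 was 0.17 in forestomach and 0.27 in lung. The D3 difference was 0.06 for Plk2 (SE 0.21, 95% interval -0.37 to 0.49), -0.21 for Sesn2 (SE 0.39, interval -1.04 to 0.62) and 0.29 for Plk3 (SE 0.42, interval -0.60 to 1.18), all with an adjusted p of 1. In the loess fit the interval of Plk2 ends below the lung difference of 0.91, which has its own interval of 0.61 to 1.21. The intervals of Sesn2 and Plk3 include a 1.5-fold change. The other D3 differences were -0.03 for Sesn1 (interval -0.63 to 0.57) and 0.19 for Btg2 (-0.24 to 0.61), whose intervals also reach past 1.5-fold, 0.06 for Sesn3 (-0.32 to 0.45) and 0.04 for Btg1 (-0.32 to 0.40). For Sesn1, Sesn2, Btg2 and Plk3 a change of that size was therefore not excluded in the loess fit. For Plk2, Sesn3 and Btg1 its exclusion rests on that fit. Under alternative processing their D3 differences ran from -0.11 to 0.68, -0.08 to 0.64 and -0.1 to 0.88, none of them called. With the first or the second array of mouse 18 alone the D3 difference was 0.17 or -0.05 for Plk2 and 0.43 or 0.16 for Plk3. None of the 7 genes was called with either array alone, with both as separate samples or without mouse 18. None of the 23 other p53 targets passed at D3 (median 0.04). Of the 10 clock genes that peak with Dbp, 9 were higher and 1 lower at D3 (median 0.50, largest 2.32), with 0 called. Of the 5 of the opposite phase, 3 were higher and 2 lower, with 0 called. Lung minus forestomach called 0 of either list at D3.

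**Figure D3:**
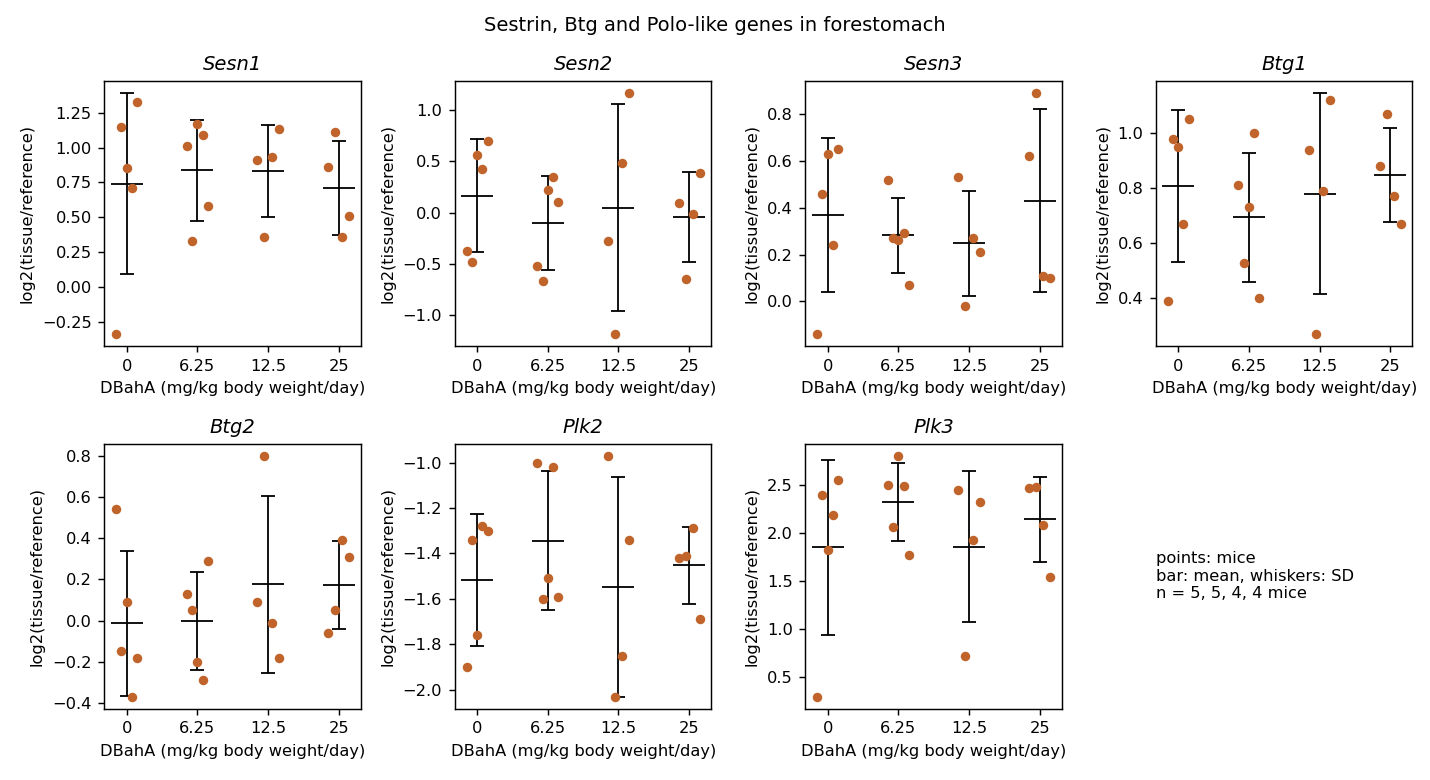
Log2(tissue/reference) of the 7 genes in forestomach (vertical axes) by daily dose of DBahA (horizontal axes). Points are mice, with both arrays of mouse 18 averaged, the bar is the group mean and the whiskers are the SD. The dose groups overlap for every gene, and the lowest Plk3 value, 0.29, is that of a D0 mouse.

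**Figure D4:**
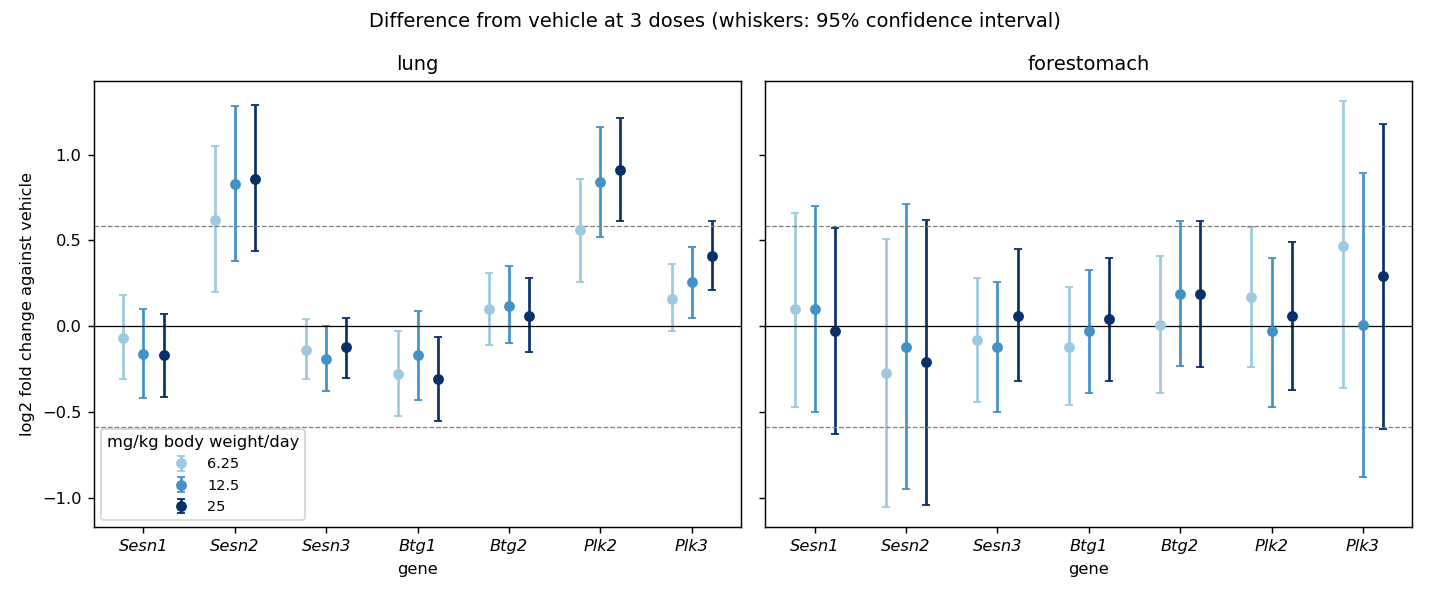
Log2 fold change against D0 (vertical axis) for each gene at 3 daily doses of DBahA, in lung (left) and forestomach (right). Whiskers are 95% confidence intervals and dashed lines mark a 1.5-fold change. In lung the intervals of Plk2 and Sesn2 lie above 0 at each dose, and in forestomach every interval spans 0.

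Whether a response differed between the tissues was tested as lung minus forestomach, and 0 of the 7 genes were called at D1, D2 or D3, where 0.0649%, 0.12% and 0.305% of all genes were. Plk2 came nearest, with a lung response larger by 0.87 at D2 (SE 0.26, unadjusted p = 0.0023, adjusted p = 0.597) and by 0.85 at D3 (SE 0.26, interval 0.33 to 1.37, unadjusted p = 0.00227, adjusted p = 0.347). For Sesn2 the D3 value was 1.07 (SE 0.45, interval 0.16 to 1.99, unadjusted p = 0.0232, adjusted p = 0.866). The lung responses of Plk2 and Sesn2 are therefore not shown to differ from those in forestomach after adjustment.

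Without DBahA, Plk3 was the gene that set the tissues apart. Its log2 ratio in D0 mice was -1.10 to -0.83 in lung, and from 0.29 to 2.56 in forestomach, where each mouse lay above every lung. The lung was lower by 2.83 (SE 0.29, 95% interval -3.43 to -2.24, adjusted p = 1.28e-09), a 7.13-fold difference, or by 1.93 with median centring in place of loess. It was the 1 gene of 7 called, where 27.6% of all genes were. Plk2 was higher in lung by 0.55 (SE 0.18, adjusted p = 0.0172), just short of 1.5-fold, and was past it without D0 forestomach mouse 2, 4 or 5 or D0 lung mouse 3, with values of 0.59 to 0.61. Sesn3 was lower in lung by 0.36 (difference -0.36, SE 0.14, adjusted p = 0.0424), also under 1.5-fold, and its sign turned with median centring. Sesn1 (0.00), Btg1 (0.03), Btg2 (0.32) and Sesn2 (-0.49) did not pass the test.

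Over the 8 groups, the mean level of Plk3 ran from -0.98 in D0 lung through -0.82, -0.72 and -0.57 at rising doses to 1.85, 1.86, 2.14 and 2.33 in D0, D2, D3 and D1 forestomach. The 4 forestomach groups did not differ beyond their spread, with SDs of 0.41 to 0.92. For Plk2 the order was reversed between tissues, from -1.55 to -1.35 in the forestomach groups to -0.97 in D0 lung and -0.06 in D3 lung. Mean levels of Sesn1 ran from 0.57 to 0.84 over all 8 groups, and those of Btg1 from 0.53 to 0.85. For both genes the 3 treated lung groups had the lowest means, and the D0 lung mean lay among those of the forestomach groups. Neither gene was called in lung, and under alternative processing the lung differences of Sesn1 reached 0.31, 0.30 and 0.26 at D1, D2 and D3.

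Among the forestomach arrays, Plk3 was lower where glandular stomach markers were high. It was 2.33 to 2.81 (median 2.53) on the 6 arrays low in those markers and 0.29 to 2.50 (median 1.93) on the other 13, among which the lowest were mouse 1 of D0 at 0.29 and mouse 12 of D2 at 0.72. Sesn1 had a median of 1.14 on the 6 arrays and 0.71 on the 13, Btg1 of 1.00 and 0.67, and Plk2 of -1.32 and -1.60. Btg2 ran the other way, with medians of -0.18 and 0.09. These ranges overlap for each of the 7 genes and are a description, since the arrays were grouped by their own values, and the part of glandular tissue in them was not tested. Without the 6 arrays the D0 difference of Plk3 between lung and forestomach was -2.42 (adjusted p = 5.82e-07), and none of the 7 genes was called in forestomach at any dose.

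**Figure D5:**
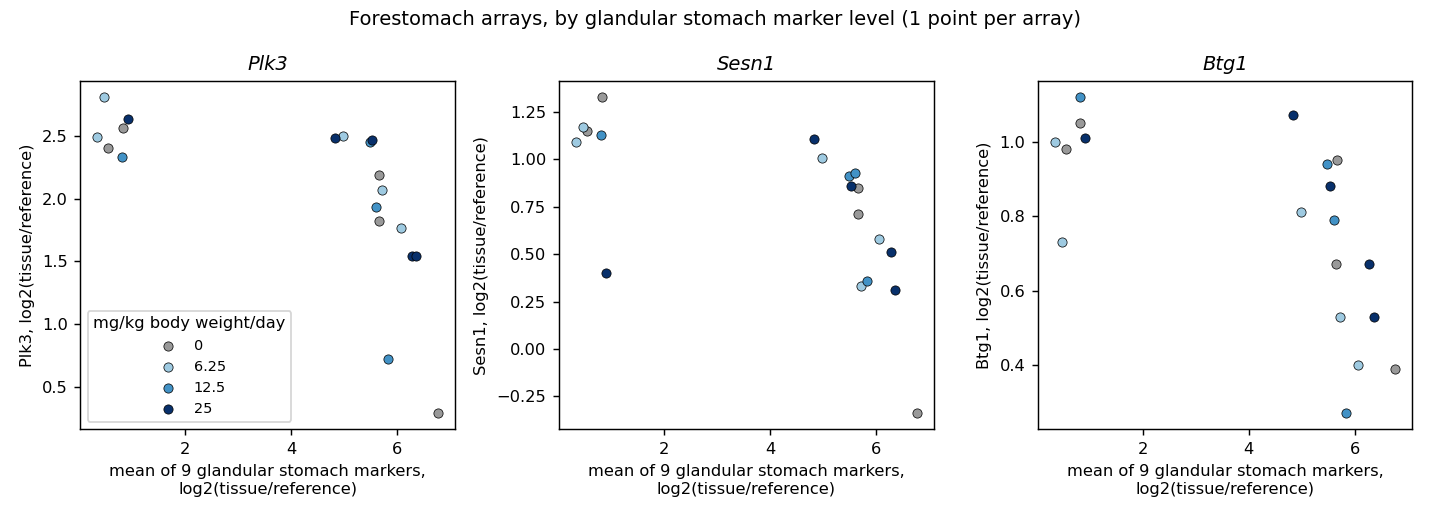
Log2(tissue/reference) of Plk3, Sesn1 and Btg1 (vertical axes) against the mean log2(tissue/reference) of 9 glandular stomach markers (horizontal axes), 1 point for each of 19 forestomach arrays, coloured by daily dose. The 6 arrays at or below 0.92 on the horizontal axis have Plk3 values of 2.33 to 2.81, and the lowest point, at 0.29, has the highest marker mean, 6.76.

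The genes whose values were most like those of each member were found by Pearson's r, over the 19 lungs among 11623 genes well above background on every lung array. These mice share dose groups and slides, so r is given as a description. For Plk2 they were Commd3 (r = 0.946), Lsm10 (0.945) and Pros1 (0.938), and after subtracting dose group means the r values were 0.800, 0.845 and 0.826. For Sesn2 they were Mxd4 (0.899), Scoc (0.840) and H1f4 (0.825), and for Plk3 Piezo1 (0.828), Chaf1b (0.827) and Ackr3 (0.827). After subtracting dose group means these were 0.772, 0.791 and 0.738 for Sesn2 and 0.734, 0.602 and 0.544 for Plk3. Picked as the highest of 11623 genes, such r values are high by selection. Plk2 and Sesn2, both higher with dose, had r = 0.39 over all lungs and r = -0.67 after subtracting the dose group means. This did not hold for each mouse, since in D3 mouse 16 was highest in Plk2 and second highest in Sesn2. Mice 2, 7, 12 and 17, which shared a slide, were the lowest of their dose groups in Sesn2. In Plk2 they were highest at D0, D1 and D2 and second highest at D3. The part of the slide in the r of -0.67 was not tested. In the 18 forestomachs, which also differ in glandular content, the closest to Plk3 were Crybg1 (0.986), Pdlim2 (0.985) and Rassf5 (0.976).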

How the data were processed

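Total RNA of 19 lungs and 19 forestomach samples was hybridised by the authors to 38 dual-colour Agilent arrays, with tissue RNA in Cy5, reference RNA in Cy3 and no dye swap. The deposited scanner files hold spot intensity values from Agilent Feature Extraction 10.7.3.1, as linear medians without background subtraction, for 62976 spots. They also hold a log10 ratio that, per the file headers, is background-subtracted and dye-normalised. A log2 ratio matrix was also deposited, of unstated scale, centring and direction, whose columns had slopes of 0.990 to 0.998 on the values computed here and medians of -0.04 to -0.02. Array build is mm9, so array coordinates are not given.

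Following the study's methods, median intensities were loess-normalised within arrays without background correction. Control spots and outlier flags (372 probe values) were left out, spots were averaged to 55681 probes, and none was saturated. The share of probes well above background was 30.1% to 63.8%, and the number of arrays limits the precision. Symbols came from RefSeq (GRCm38.p6) by accession, for 26413 probes of 20018 genes. A gene is given by its brightest probe. All 7 genes matched a promoter window, Sesn1 with 2. Models were fitted with limma 3.58.1 in R 4.3.3 (package data.table, version 1.17.8), 1 mean per dose group over all arrays of a tissue, and over both tissues for comparisons between them. Calls need an adjusted p of at most 0.05 and a fold change of at least 1.5. The study's MAANOVA permutation test was not used. Intervals are unadjusted. The scripts were tested on simulated data.

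The labels give 2 arrays to forestomach mouse 18, which were averaged to 1 replicate, and none of the forestomach arrays used here is labelled mouse 20. Whether both arrays are of 1 animal is not settled by the files. In fits with slide as a block it keeps the slide of its first array. Lung and forestomach samples share mouse numbers. Deviations from group means correlated by 0.08 to 0.25 over the 18 mice with both tissues, and the same number in both tissues marks the same animal per the labels. Named besides the 7 genes were, from each pathway list, up to 4 called genes with the largest D3 difference in lung or else the gene with the smallest p, and the 3 genes most correlated with a member (for Plk2, Sesn2 and Plk3 in lung and Plk3 in forestomach). Ephx1, Ei24, Mdm2, Bbc3, Birc5 and Mki67 fall outside this rule and were chosen after their values were seen. The genes and lists were chosen with earlier results of these data known.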

Additional observations from a re-analysis of the deposited data

Results flagged for a closer look

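Among 64 sets of 4 or 5 mice (8 probes in 8 groups), 2 held a mouse far from the others by Dixon's test, where chance gives about 1 in 20. Sesn2 in D0 lung was lowest in mouse 2, at -0.88 against -0.27 for the next mouse, and that gap took up 0.744 of the range of the group. The lowest Sesn2 lung of each other dose group was on the same slide as mouse 2. Without mouse 2 the D3 difference of Sesn2 was 0.72 (adjusted p = 0.0903). The second probe of Btg1 in D0 lung was highest in mouse 3, at 1.05 against -0.66 for the next, a gap of 0.864 of the range, while its brighter probe read 1.03 in that mouse within a D0 range of 0.60 to 1.03.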

How the results depend on the processing

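The number of the 7 genes called changed in lung and between the tissues at D0, and was 0 under every alternative run for forestomach, for D3 against D1 and for lung minus forestomach. At D1 in lung it was 1 (Sesn2) with slide and with scan day as a block. At D2 it was 2 (Plk2 and Sesn2) with either block, 0 with median centring, and 0 to 1 when 1 mouse was left out. At D3 it was 1 (Plk2) with the Feature Extraction log ratio, with a trended robust eBayes fit and with the 2 dose groups alone, 1 (Sesn2) with median centring, and 1 to 2 when 1 mouse was left out. For the tissues at D0 it was 2 (Plk2 and Plk3) with the Feature Extraction log ratio and without the arrays low in glandular markers, and 1 to 2 when 1 mouse was left out.

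Plk2 at D3 was called under 11 of 12 alternatives, and in 10 of 10 fits without 1 mouse. The exception was median centring, where it was 1.20 (adjusted p = 0.732) at D3 and 1.16 (adjusted p = 0.658) at D2. Sesn2 at D3 was called under 9 of 12, with adjusted p between 0.00012 and 0.251. With median centring the median difference of all genes in lung was 0.19, 0.24 and 0.20 at D1, D2 and D3. For genes well above background on every array of both tissues it was 0.38, 0.46 and 0.43. With this centring 16 probes were called at D3 in place of 356. Under it Btg1 turned to 0.18 at D1 and 0.22 at D3, and Sesn3 turned to 0.11 at D2 in lung and to 0.22 between tissues, while called p53 targets at D3 dropped from 14 to 4. Of 84 member differences, 62 had an unadjusted p above 0.05 and are given no direction. Of these, 46 changed sign under at least 1 alternative and 0 were called under any.

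With mouse number as a replicate block, the D3 lung minus forestomach response of Plk2 was 0.85 (adjusted p = 0.396 fixed, 0.2 random) and the pairing changed no call among the 7 genes, with 0 called at D1, D2 and D3 and 1 for the tissues at D0. Over all probes, those called for lung minus forestomach went from 18, 34 and 96 at D1, D2 and D3 to 43, 57 and 120 with the fixed block and 44, 68 and 139 with the random one. With both arrays of mouse 18 as separate samples, that Plk2 response was 0.82 (adjusted p = 0.448). This setting and the heart muscle covariate were chosen after seeing the data. Between 4 and 5 mice per group, whole-tissue sections and 1 probe for most genes limit these values.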
